A study of Mus musculus with 20 samples.

Results

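The genes described here encode the nuclear subunits of the mitochondrial complexes I, III, IV and V, which carry out oxidative phosphorylation. They were chosen by symbol alone, as every row of the count table named Nduf, Uqcr, Cox4 to Cox8 or Atp5 in the pattern of a subunit. The choice took 79 of 19269 genes, of which 36 belong to complex I, 8 to complex III, 18 to complex IV and 15 to complex V. The other 2 fitted the naming pattern but are not subunits: Cox4nb encodes a protein of an endoplasmic reticulum membrane complex and lies beside Cox4i1, and Atp5s encodes a factor related to coupling factor B. The subunits encoded by mitochondrial DNA were not analysed here.

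Complex I takes electrons from NADH, complex III passes them on to cytochrome c, and complex IV hands them to oxygen. The proton gradient that the 3 complexes build drives complex V, the ATP synthase. Each complex joins a few catalytic subunits to many small accessory subunits, and several subunits of complexes IV and V are encoded by more than one gene, with isoforms that differ in tissue distribution. Neurons meet most of their ATP demand through this chain.

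Each sample was a pool of preoptic area punches from 3 to 4 female mice, taken at day 21 (young) or at days 70 to 150 (adult, in diestrus). The preoptic area holds most of the neurons that release gonadotropin-releasing hormone (GnRH). In translating ribosome affinity purification, ribosomes that carry a GFP-tagged L10a protein are pulled down with the mRNA they hold, which gives an immunoprecipitate (IP) and a depleted supernatant. A lone adult pool of GnRH CRE x Floxed L10a-GFP mice, whose GnRH neurons carry the tag through the Cre driver, gave a GFP-positive IP and its supernatant. The 2 adult negative pools were GnRH CRE only. Of the 3 young negative pools, pools 1 and 2 were Wild Type and pool 3 was Floxed L10a-GFP only, and none of these 5 negative pools joined the Cre driver to the tag. Supernatant RNA of 4 prior pools of the GnRH CRE x Floxed L10a-GFP cross, 2 adult and 2 young, was sequenced again in the second set after a first set. These groups made 20 libraries. Age and genotype changed together among the negative pools and cannot be told apart there.

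The libraries held 27.7 to 50.5 M counts each, and the 79 genes took 1.81 to 3.44% of them. Levels are given as CPM, the counts scaled to a common library size, after trimmed-mean scaling. Neuronal marker genes summed to between 4920 and 6250 CPM in the second-set supernatants of adult and young pools, and the 8 preoptic markers to between 59.8 and 212 CPM. Gnrh1 measured 1460 CPM in the IP of the GFP-positive pool and 33.5 and 16.2 CPM in that of the adult negative pools. No pair of libraries was identical. Each library was made from the IP or the supernatant of pooled punches. Fewer cells of a type and less RNA per cell thus cannot be told apart in any level given here.

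The subunit genes of 1 complex did not share a common level. Per kb of transcript, averaged over the 10 second-set supernatants, the highest of complex I was Ndufa4 at 1480 ± 201 CPM per kb (SD, n = 10), whose product has been assigned to complex IV as well. The core subunit Ndufs1, an iron-sulfur protein of the electron entry arm, stood at 65.3 ± 8.47 CPM per kb. The core subunits Ndufv1 at 249 ± 22.9 and Ndufs7 at 565 ± 60.3 CPM per kb lay between these levels. In complex III the order ran from Uqcrq (903 ± 216 CPM per kb), a small accessory subunit, to the core protein Uqcrc2 (148 ± 16.8 CPM per kb). The ranges of Uqcr10 (514 to 852 CPM per kb), Uqcr11 (439 to 886 CPM per kb) and Uqcrb (482 to 750 CPM per kb) overlapped, so the order of these neighbours is not resolved. In complex V the c-ring gene Atp5g3 (1590 ± 236 CPM per kb) and the catalytic beta subunit gene Atp5b (1370 ± 117 CPM per kb) came first and overlapped as well. These values depend on the transcript length used, which was 452 nt for Ndufa4, 2590 nt for Ndufs1 and 1916 nt for Atp5b. The part of length in these orders was not tested.

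Complex IV levels were split by isoform. The ubiquitous forms Cox4i1 (1530 ± 226 CPM per kb), Cox8a (1410 ± 262 CPM per kb), Cox6a1 (1100 ± 163 CPM per kb) and Cox6b1 (931 ± 144 CPM per kb) were abundant. Their counterparts of restricted tissues were scarce. Cox6a2, the form known from heart and skeletal muscle, stood at 15.6 ± 7.21 CPM per kb, the testis form Cox6b2 at 11.3 ± 3.14, and the heart and muscle form Cox7a1 at 9.60 ± 1.99. Cox4i2, known from lung, averaged 1.72 ± 0.471 and Cox7b2 1.54 ± 0.616 CPM per kb. Cox8b had 0 to 10 counts in a library, and Cox8c had counts in 1 library alone, where it had 4. These last genes fell under the expression filter, so 77 of the 79 genes were tested in each comparison. Ndufs5, a complex I accessory gene, had only 2 to 25 counts per library, which is 0.838 ± 0.366 CPM per kb. The gene models used for counting are not named in the labels, and its count is given as it stands.

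**Figure D1:**
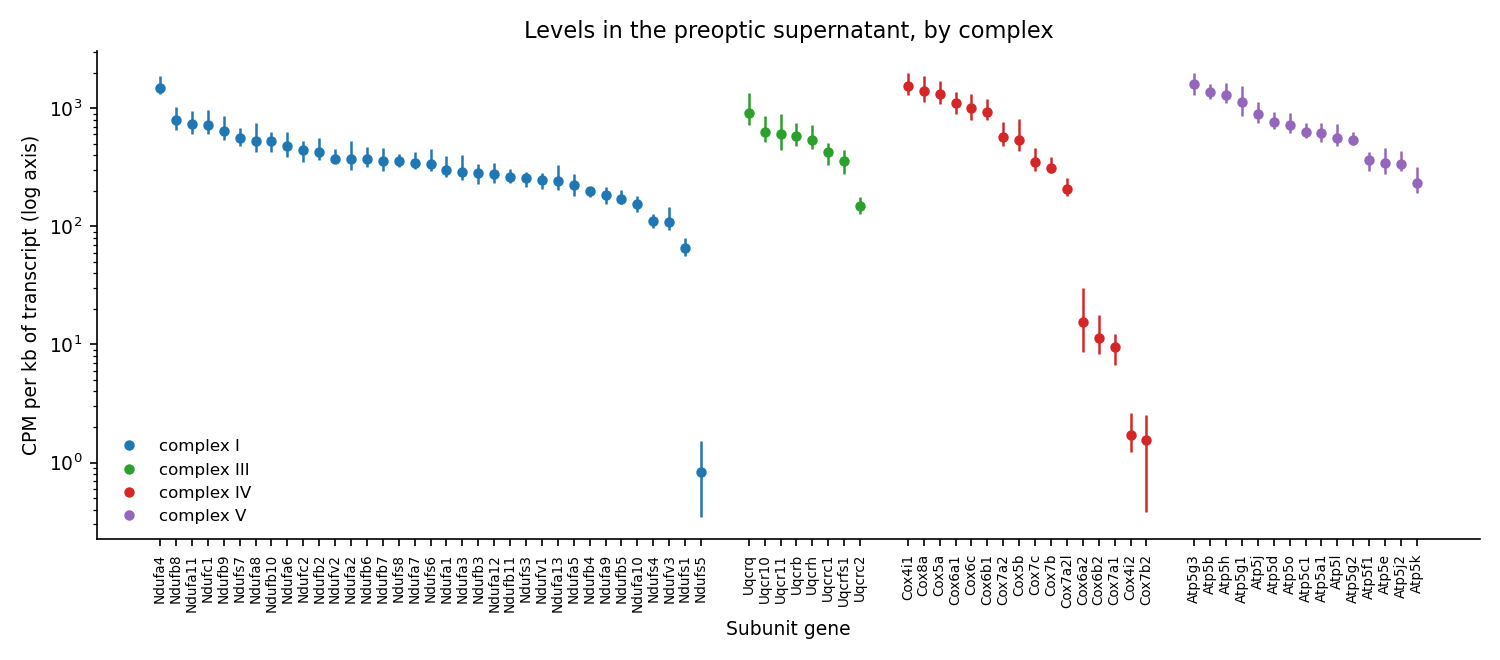
Level of subunit genes in the preoptic supernatant, in CPM per kb of transcript on a log axis. Points are means and lines the full range over the 10 second-set supernatants, and genes are ordered by level within each complex. Complex IV separates into abundant forms such as Cox4i1 and restricted forms such as Cox7a1, and Ndufs5 lies far under the rest of complex I. Cox8b and Cox8c are not drawn.

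The main comparison asked what a pull-down without tagged ribosomes recovers. The mRNA of the respiratory chain was depleted in it: 64 of the 77 tested genes were lower in the negative IP than in the supernatant and 1 was higher, by the quasi-likelihood test of edgeR at an adjusted p under 0.05. Over all 16361 genes, 32.1% were called, 16.2% as lower and 15.8% as higher. The median log2 difference was -0.95 over the tested members and -0.03 over all genes. The sums over each complex did not overlap between the fractions. Complex I genes came to 6250 ± 754 CPM in negative IP and 11100 ± 1180 CPM in negative supernatants (SD, n = 5 each). Complex IV genes came to 3430 ± 549 CPM in negative IP and 6730 ± 960 CPM in negative supernatants. For complex III the sums were 2200 ± 182 and 3190 ± 415 CPM in the same order, and for complex V they were 7590 ± 412 and 11300 ± 1050 CPM.

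**Figure D2:**
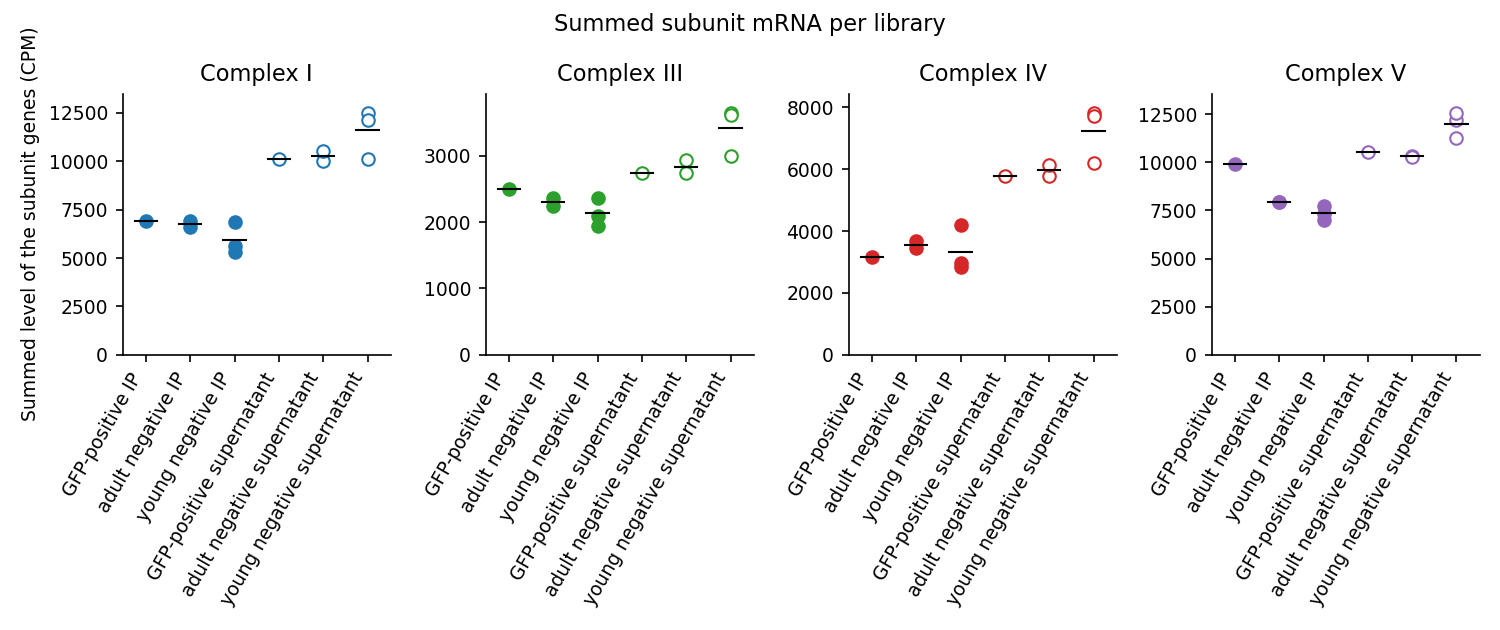
Summed level of the subunit genes of each complex, in CPM, in the 12 libraries of the new pools. Each point is a library and each bar a group mean, with filled points for the IP and open points for the supernatant. Every negative IP lies under every negative supernatant in all 4 panels. In complex V the GFP-positive IP stood at 9905 CPM and its own supernatant at 10540 CPM, and in complex III at 2502 and 2746 CPM. These sums hide the single genes. Of 15 complex V genes, 13 were lower in this IP than in its supernatant, by a median of -0.60 in log2(CPM + 1). The abundant Atp5b (3403 and 2733 CPM) and Atp5a1 (2022 and 1490 CPM) were higher.

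Markers of cell types moved between the same fractions. The 7 neuronal markers summed to 5400 to 7830 CPM in the negative IP and 4920 to 5740 CPM in the negative supernatants, with Nefl and Syt1 higher and Snap25 and Stmn2 lower. The higher IP sum rests on Nefl, at 1390 to 3530 CPM in the IP and 407 to 721 CPM in the supernatants. Snap25, the largest in the supernatants, stood at 1630 to 2130 CPM in the IP and 2560 to 2960 CPM in the supernatants. The 7 astrocyte markers summed to 999 to 1950 CPM in the IP and 1320 to 1470 CPM in the supernatants, with Aldh1l1 and Slc1a2 higher. Of 7 microglial markers, C1qa and Aif1 were lower, with sums of 62.7 to 90.7 CPM in the IP and 68.4 to 98.1 CPM in the supernatants. The part of these markers in the result was not tested.

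Complex I had 32 of 36 genes lower and Ndufs1 higher. The largest falls among its called genes were those of Ndufa2 (log2 -1.28, SE 0.18, adjusted p = 0.000505) and Ndufa5 (log2 -1.23, SE 0.15, adjusted p = 0.000191), both accessory subunits. Ndufa1, a small membrane subunit needed to assemble the complex, had 47.2, 77.9 and 46.5 CPM in the young and 67.3 and 55.5 CPM in the adult IP, against 165, 163 and 122 CPM in the young and 122 and 120 CPM in the adult supernatant. All 5 IP libraries were under all 5 supernatants, and the log2 difference was -1.21 (SE 0.17, adjusted p = 0.000504). Among the core subunits, Ndufs3, Ndufs7, Ndufs8 and Ndufv2 were lower by log2 differences from -0.77 to -0.67. Ndufv1, which binds NADH, did not pass the test, with a log2 difference of -0.07 (SE 0.08).

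Ndufs1 went the other way. It had 223, 215 and 214 CPM in the young and 235 and 244 CPM in the adult IP, against 144, 150 and 154 CPM in the young and 166 and 156 CPM in the adult supernatant. The fractions did not overlap, and the log2 difference was 0.53 (SE 0.08, adjusted p = 0.000496).

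Complex III had 6 of 8 genes lower. Uqcrb, an accessory subunit near the quinone site, had 110, 196 and 129 CPM in the young and 153 and 145 CPM in the adult IP, against 386, 401 and 302 CPM in the young and 291 and 297 CPM in the adult supernatant. Even the highest IP library was under the lowest supernatant (log2 -1.18, SE 0.16, adjusted p = 0.000382). Uqcrfs1, the Rieske iron-sulfur protein, was lower by a smaller amount (log2 -0.56, SE 0.08, adjusted p = 0.000504). The core proteins did not pass: Uqcrc1 had a log2 difference of 0.06 (SE 0.07) and Uqcrc2 one of 0.15 (SE 0.11).

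Complex IV had 12 of 16 tested genes lower, and the 4 not called were the scarce isoforms Cox4i2, Cox6b2, Cox7a1 and Cox7b2, all with negative values. Cox6c, an accessory subunit, had the largest fall among those called. It had 161, 296 and 172 CPM in the young and 303 and 256 CPM in the adult IP, against 647, 658 and 475 CPM in the young and 524 and 558 CPM in the adult supernatant (log2 -1.25, SE 0.18, adjusted p = 0.000552). Cox4i1, the largest nuclear subunit, differed by log2 -0.87 (SE 0.11, adjusted p = 0.000281) and Cox5a, which interacts with it, by -1.10 (SE 0.09, adjusted p = 2.54e-05). The muscle form Cox6a2 was lower too, with overlapping libraries (log2 -1.18, SE 0.27, adjusted p = 0.00759), as were Acta1 and Myh6, 2 of the 6 muscle markers. The muscle markers summed to 12.3 to 26.2 CPM in the negative IP and 15.0 to 40.2 CPM in the negative supernatants, with Acta1 the most of each sum. Their part in the result was not tested.

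Complex V had 13 of 15 genes lower. The c ring turns within the membrane as protons pass, and its 3 genes encode the same mature protein behind different import sequences. Atp5g3 had 502, 599 and 469 CPM in the young and 545 and 553 CPM in the adult IP, against 1393, 1421 and 1167 CPM in the young and 1082 and 1172 CPM in the adult supernatant (log2 -1.22, SE 0.10, adjusted p = 1.67e-05). Atp5k, a small membrane subunit, was lower by a similar amount (log2 -1.19, SE 0.21, adjusted p = 0.00179). The catalytic head did not follow as a whole. Atp5a1 and Atp5b, the alpha and beta subunits, had log2 differences of 0.07 (SE 0.10) and -0.23 (SE 0.09) and were not called, while Atp5c1 (-0.66, SE 0.08), the gamma subunit, and Atp5d (-0.94, SE 0.08), the delta subunit, were lower. With each IP paired to the supernatant of its own pool, Atp5b was called as lower (log2 -0.23, edgeR adjusted p = 0.0224). Atp5a1 was not called in that fit (log2 0.06, edgeR adjusted p = 0.598).

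Depletion was weaker among members with long transcripts. Of 29 members of up to 600 nt, 25 were lower, with a median log2 difference of -1.05. Of 13 members over 1500 nt, 6 were lower and 1 was higher, with a median of -0.23. Over all genes the direction with length was the same, with medians of -0.79 up to 600 nt and 0.10 over 1500 nt. Of all genes, 40.8% were called as lower up to 600 nt and 11.6% over 1500 nt. The rank correlation of difference with length was 0.621 over the 77 members and 0.452 over 16147 genes, given as a description, since the genes share the same 10 libraries. The median transcript length was 683 nt for the members and 2730 nt for the genes tested.

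**Figure D3:**
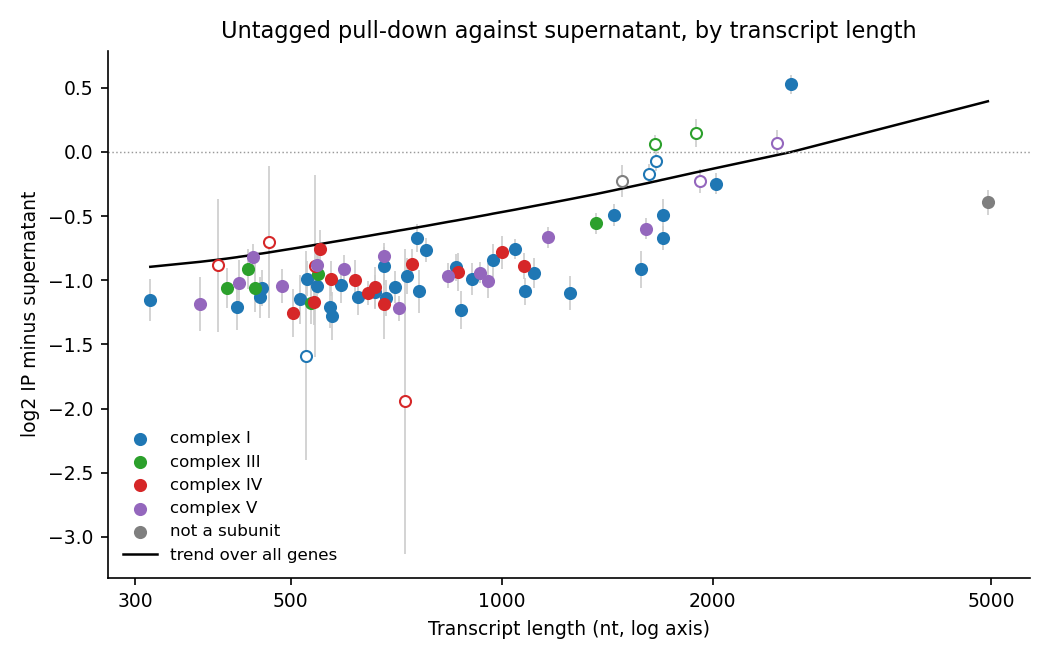
Log2 difference of negative IP minus supernatant for the 77 tested genes against transcript length in nt on a log axis. Filled points passed the test, open points did not, vertical lines are SE, and the black line is the trend over all genes. Most members lie under the line, and Ndufs1, Uqcrc1, Uqcrc2 and Ndufv1 lie above it.

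With that trend removed from every library and each IP paired with the supernatant of its own pool, 38 members were lower and 4 were higher, with a median log2 difference of -0.26. In that fit 20.2% of all 16147 genes were called, 1603 as lower and 1652 as higher. The genes higher after this step were Ndufs1 (log2 0.58, SE 0.07, adjusted p = 0.00121), Ndufv1 (0.23, SE 0.06, adjusted p = 0.036), Uqcrc1 (0.37, SE 0.06, adjusted p = 0.00444) and Uqcrc2 (0.37, SE 0.09, adjusted p = 0.0267). Complex I then had 21 lower calls of 36 genes, complex IV 9 of 16, complex V 6 of 15 and complex III 1 of 8. Atp5g3 remained lower (log2 -0.53, SE 0.05, adjusted p = 0.000436), and so did Cox5a (-0.37, SE 0.06, adjusted p = 0.00512). Cox8a, a small membrane subunit that had been lower by a log2 difference of -0.75, moved to 0.02 (SE 0.07). Atp5g2 moved in the same way, to 0.06 from -0.82. Transcript length moved with the difference, and what it stands for was not tested.

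Genes that work with these complexes were taken from lists drawn up by function. Their counts are for negative IP against supernatant with the length trend left in. There 32.1% of all genes were called, 16.2% as lower and 15.8% as higher. The part of transcript length in these lists was not tested. Of the 4 genes of complex II, which feeds electrons from succinate, 3 were lower: Sdhb, Sdhc and Sdhd, with Sdhc at log2 -1.20 (SE 0.10). Sdha, the flavoprotein, was not called (0.03, SE 0.08). Of 12 genes of electron carriers and associated proteins, 9 were lower and 1 was higher. The list shares Cox7a2l, which was lower, with the complex IV genes counted above. Cycs, cytochrome c, was among the lower ones (log2 -1.05, SE 0.11), as was Atpif1, the inhibitor of the ATP synthase (-1.01, SE 0.15), while Etfdh was higher (0.64, SE 0.19). Of the assembly factors, 3 of 9 were lower for complex I, 3 of 11 lower and 1 higher for complex IV, and 1 of 3 lower for each of complexes III and V. Among 13 regulators of these genes, 4 were higher and 3 lower. The coactivators Ppargc1a (log2 1.11, SE 0.12) and Ppargc1b (1.44, SE 0.13) were higher, and their partner Esrra, a nuclear receptor, was lower (-0.82, SE 0.12). The 14 genes of the citric acid cycle had a median of 0, with 2 higher and 3 lower.

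Within ages, the depletion was called for more genes in the young pools. In the young negative pools 62 members were lower and 1 was higher (27.1% of all genes called), with a median of -1.19, and in the adult negative pools 34 were lower and 1 was higher (10.9% of all genes called, 4.49% as lower and 6.39% as higher), with a median of -0.73. The adult count rests on single libraries. It was 35 in all, and it became 4 without supernatant 1 and 3 without supernatant 2 of the adult negative pools, 6 without adult IP 1, 7 without adult IP 2, 21 without young supernatant 2 and 60 without young IP 2. In the same order, these fits called 1.68%, 2.86%, 5.24%, 9.93%, 7.28% and 13.9% of all genes. With the length trend removed the adult count was 5 in all, with 5.98% of all genes called. With each IP paired to its supernatant, 51 adult members and 12.7% of all genes were called.

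The difference between ages was itself tested. No member passed, and none of the 16361 genes did (0% called), while 10 members and 1068 genes had an unadjusted p under 0.05. DESeq2 called 0 members and 0.804% of all genes. The interaction was positive for 72 of 77 members, with a median of 0.44 over the members and 0.02 over all genes. The member median was 0.15 with the length trend removed and 0.66 without young IP 2. Among the members, Atp5o, a stalk subunit, had an unadjusted p of 0.0102 (log2 0.61, SE 0.20, adjusted p = 0.734). In single pools, IP over supernatant had a median log2 ratio of CPM + 1, over the 75 members whose mean over all 20 libraries was above 1 CPM, of -0.59 and -0.77 in the adult and -1.39, -0.89 and -1.13 in the young negative pools.

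The negative IP of adult and young pools was then compared directly. No member was called (0.727% of all genes called, 0.403% as lower and 0.324% as higher), and 9 had an unadjusted p under 0.05. DESeq2 called 2 members, 1 higher and 1 lower, and 8.32% of all genes. Ndufb4, an accessory subunit of complex I, was the nearest in edgeR, with a log2 difference of 0.65 (SE 0.18, adjusted p = 0.119). Without young IP 2, 3 members were called as higher, and 1.73% of all genes were called. The medians were 0.23 for complex I, 0.12 for complex III, 0.10 for complex IV and 0.17 for complex V. They rest on single libraries: without young IP 2 they were 0.41, 0.36, 0.27 and 0.26 in that order of complexes, and complex IV was at -0.01 without young IP 1, 0.02 without young IP 3 and 0.02 without adult IP 1. Complex III was at 0.04 without adult IP 1, and complex V at 0.08.

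The GFP-positive IP, which held Gnrh1 at the level given above, did not differ from the adult negative IP by the test for any member (0.00603% of all genes called). The spread of the single GFP-positive library was taken from the 5 negative IP libraries. Of the members, 3 had an unadjusted p under 0.05, and DESeq2 called 0 members and 1.32% of all genes. Atp5b reached 3403 CPM with the tag and 2367 and 2222 CPM in the IP of adult negative pools, a log2 difference of 0.61 (SE 0.22, edgeR adjusted p = 0.938). Atp5c1 reached 673 CPM with the tag and 521 and 465 CPM in the adult negative pools. The median log2 difference was 0.18 for complex V, from 0.10 with library size alone to 0.29 with the length trend removed, and -0.24 for complex IV, which was -0.32 and -0.14 in those fits. Those of complexes I and III were near 0 and changed sign between fits. Against its own supernatant, the GFP-positive IP had Atp5a1 at 2022 CPM and 1490 CPM in the supernatant, and Cox6c at 204 CPM and 490 CPM in the supernatant. The median log2 ratio over 75 members was -0.70, which lies between the values of the adult negative pools.

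Age was compared in the supernatants of 10 pools, 5 adult and 5 young, all from the second set, with new or prior origin as a term. Among the new pools no genotype recurred at both ages, so age and genotype cannot be told apart there. Only the 4 prior pools had the same genotype at both ages. Expression of 12 of the 77 members was lower in adults and that of none was higher, against 9.42% of all 15938 genes called with 5.22% called as lower and 4.2% as higher. The median log2 difference was -0.18 over the members and 0.01 over all genes. With the length trend removed it was -0.10 over the members, of which 14 were lower. In that fit 10.9% of all 15740 genes were called, 981 as lower and 737 as higher. The rank correlation of difference with length was 0.383 over the members and 0.081 over all genes, as a description. With the trend left in, complex V had 5 of 15 genes lower, complex III 3 of 8, complex IV 2 of 16 and complex I 2 of 36. The sums show how small the shift was. Complex III summed to 2720 ± 180 CPM in adult and 3260 ± 358 CPM in young supernatants, and complex I to 9880 ± 560 CPM in adult and 10800 ± 1430 CPM in young supernatants (SD, n = 5 each).

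Among the called members, Cox6a2 had the largest difference. It had 7.07 and 7.44 CPM in the adult negative, 6.91 CPM in the adult GFP-positive and 5.81 and 6.65 CPM in the adult prior pools, against 14.9, 20.5 and 13.2 CPM in the young negative and 14.7 and 9.09 CPM in the young prior pools. The lowest young pool was above the highest adult pool, and the log2 difference was -1.09 (SE 0.16, adjusted p = 0.00156). Its ubiquitous counterpart Cox6a1 did not pass (log2 -0.11, SE 0.07), and Cox8a, which is ubiquitous as well, was lower by a small amount (-0.29, SE 0.07, adjusted p = 0.0264). Of 6 muscle markers, Acta1 alone was called and was lower in adults. Their sum was 15.0 to 22.2 CPM in adult and 23.6 to 40.2 CPM in young supernatants. Acta1 made up most of that sum, at 13.3 to 17.2 CPM in adult and 20.3 to 33.2 CPM in young supernatants. Ckm, the muscle creatine kinase gene, stood at 0.0911 to 0.486 CPM in adult and 0.102 to 0.364 CPM in young supernatants, and the part of muscle RNA in the result was not tested.

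In complex V the change was uneven among the c-ring genes. Atp5g1 had 536 and 513 CPM in the adult negative, 547 CPM in the adult GFP-positive and 553 and 572 CPM in the adult prior pools, against 870, 912 and 780 CPM in the young negative and 764 and 681 CPM in the young prior pools. Adults lay within a narrow range under all young pools, and the log2 difference was -0.56 (SE 0.08, adjusted p = 0.000915). Atp5g3 was lower by less (log2 -0.27, SE 0.07, adjusted p = 0.0296). Atp5g2 had 230, 243, 243, 214 and 226 CPM in adult and 255, 279, 224, 226 and 221 CPM in young supernatants. Its groups overlapped, and it did not pass (log2 -0.06, SE 0.07).

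Ratios between isoform genes within a library were compared by exact two-sided permutation tests of the 5 adult against the 5 young supernatants, adjusted over 6 ratios, with 0.00794 as the smallest p possible. The log2 ratio of Atp5g1 to Atp5g2 averaged 1.23 ± 0.12 in adult and 1.73 ± 0.07 in young supernatants (exact p = 0.00794, adjusted p = 0.0159). For Atp5g1 to Atp5g3 the ratio was -0.92 ± 0.19 in adult and -0.63 ± 0.04 in young supernatants (exact p = 0.00794, adjusted p = 0.0159). The ratio of Cox6a2 to Cox6a1 was -6.28 ± 0.09 in adult and -5.43 ± 0.25 in young supernatants (exact p = 0.00794, adjusted p = 0.0159). Atp5g3 to Atp5g2 differed by -0.21 (exact adjusted p = 0.0238). The ratios of Cox7a1 to Cox7a2 and of Cox6b2 to Cox6b1 did not pass, with adult minus young differences of 0.02 and 0.30. Within origins, the Atp5g1 to Atp5g2 difference was -0.61 in the new and -0.33 in the prior pools, and that of Cox6a2 to Cox6a1 was -0.88 in the new and -0.80 in the prior pools. For Atp5g1 to Atp5g3 it was -0.40 in the new and only -0.10 in the prior pools, and for Atp5g3 to Atp5g2 -0.20 and -0.23. With the 6 new pools alone the smallest possible exact p is 0.1, so the new pools could not pass by themselves. Over all settings tried, the adjusted exact p for Atp5g1 to Atp5g2 ran from 0.0159 to 0.15.

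**Figure D4:**
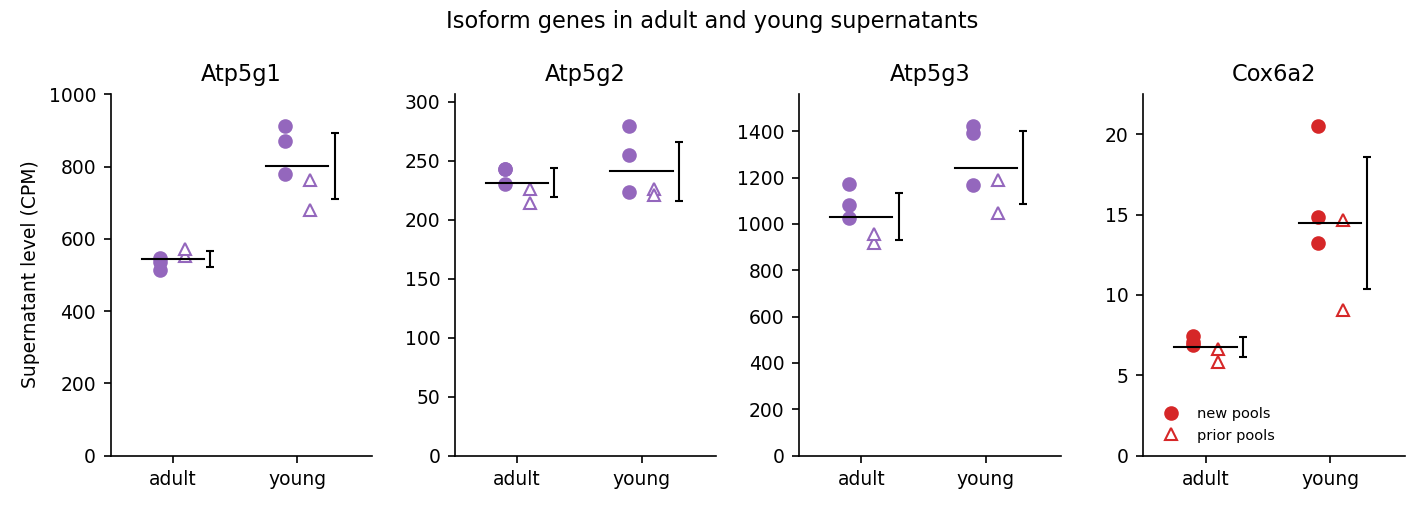
Supernatant level in CPM of the 3 c-ring genes and of Cox6a2 in 5 adult and 5 young pools of the second set. Circles are new and triangles prior pools, horizontal bars are means, and error bars are SD. Adult and young pools do not overlap for Atp5g1 and Cox6a2 and overlap for Atp5g2.

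The 3 c-ring genes code for 1 protein from separate promoters, so the bases around their starts are given here, from 100 before to 50 after the start in RefSeq (GRCm38.p6), to show where the genes differ. They lie on the minus strand, Atp5g1 at chr11:96075582-96075731, Atp5g2 at chr15:102670998-102671147 and Atp5g3 at chr2:73911277-73911426. Capitals mark the motif of NRF1, GCGCA, any base, then GCGC, on either strand. NRF1 is a factor known to act on respiratory genes.
Atp5g1: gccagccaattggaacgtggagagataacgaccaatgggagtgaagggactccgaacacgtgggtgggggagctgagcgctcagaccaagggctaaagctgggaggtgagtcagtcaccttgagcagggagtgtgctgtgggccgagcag
Atp5g2: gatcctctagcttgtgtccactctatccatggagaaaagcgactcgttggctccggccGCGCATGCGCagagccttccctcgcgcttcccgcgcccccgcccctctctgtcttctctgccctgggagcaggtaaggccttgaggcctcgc
Atp5g3: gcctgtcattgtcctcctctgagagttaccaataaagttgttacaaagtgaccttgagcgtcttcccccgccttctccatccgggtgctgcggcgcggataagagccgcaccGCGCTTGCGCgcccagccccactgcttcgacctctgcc
The motif was found at -42 in Atp5g2 and at 12 in Atp5g3, counted from the start, and not in the window of Atp5g1. A match is a run of letters and not a measured site.

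Over the 63 members with a RefSeq promoter, 16 of 68 windows (23.5%) of 300 bases held the NRF1 motif, against 7.35% of 16497 windows of genes in the count table. By complex the share was 37.5% of 16 windows for complex V, 23.5% of 34 for complex I, 20% of 5 for complex III and 7.69% of 13 for complex IV. The motif AAGATGGC of YY1 was in 13.2% of member windows and 3.36% of those of genes in the table, and CCGGAAGT, the ETS motif bound by the GABP factors, in 7.35% and 5.83%. Both strands were searched, and the motifs share no letters in the windows printed here. Ndufb4, which held 3 NRF1 matches, and Ndufs6, which held both NRF1 and YY1 matches, show how they lie, with the matches in capitals. Ndufb4 is printed from chr16:37654319-37654618 and Ndufs6 from chr13:73328433-73328582, both on the minus strand.
Ndufb4: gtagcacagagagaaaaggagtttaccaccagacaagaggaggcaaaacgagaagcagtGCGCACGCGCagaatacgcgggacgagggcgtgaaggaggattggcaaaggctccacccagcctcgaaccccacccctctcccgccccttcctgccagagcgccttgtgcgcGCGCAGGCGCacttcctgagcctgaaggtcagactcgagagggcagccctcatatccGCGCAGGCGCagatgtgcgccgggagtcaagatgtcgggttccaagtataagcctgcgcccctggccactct
Ndufs6: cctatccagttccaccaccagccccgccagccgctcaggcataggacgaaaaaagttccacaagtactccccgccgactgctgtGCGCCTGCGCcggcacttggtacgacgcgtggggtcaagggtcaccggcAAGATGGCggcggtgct
Neither gene was called with age in the supernatants: Ndufb4 had a log2 difference of 0.12 (SE 0.07) and Ndufs6 one of -0.21 (SE 0.08).

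In complex III, Uqcr11, a small accessory subunit, had the largest age difference. It had 230 and 259 CPM in the adult negative, 223 CPM in the adult GFP-positive and 209 and 195 CPM in the adult prior pools, against 394, 358 and 297 CPM in the young negative and 275 and 232 CPM in the young prior pools. The ranges overlapped through the lowest young prior and the highest adult negative pool, and the log2 difference was -0.47 (SE 0.09, adjusted p = 0.00635). Uqcrq (-0.42, SE 0.10, adjusted p = 0.0189) and the Rieske protein gene Uqcrfs1 (-0.34, SE 0.07, adjusted p = 0.00717) were lower as well, while the core proteins Uqcrc1 and Uqcrc2 were not called. In complex I, the accessory genes Ndufc1 (-0.34, SE 0.08, adjusted p = 0.0180) and Ndufa8 (-0.32, SE 0.08, adjusted p = 0.0320) were lower. None of the 7 core subunit genes of complex I was called, with values from -0.10 to 0.04. In complex V the stalk and membrane genes Atp5j2, Atp5o and Atp5f1 were lower, by log2 differences from -0.29 to -0.24.

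**Figure D5:**
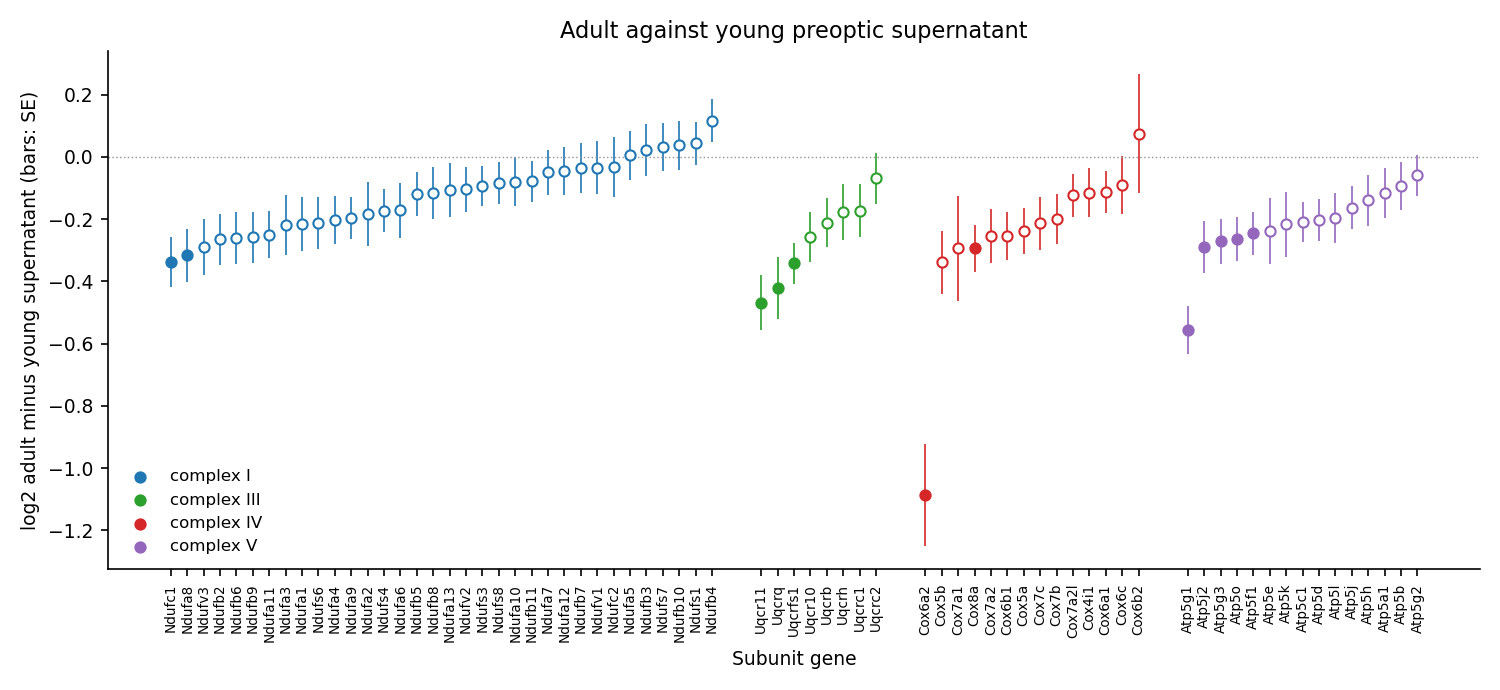
Log2 difference of adult minus young supernatant for subunit genes, ordered within its complex, with SE. Filled points passed the test and open points did not. Among the genes drawn, Cox6a2 at -1.09 and Atp5g1 at -0.56 lie farthest under 0. Ndufs5, Cox4i2 and Cox7b2, all with few counts, are not drawn.

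The number of age calls moved with single libraries and with the origin of the pools. It was 12 in all, 6 without young supernatant 1, 4 without young supernatant 2 and 25 without young supernatant 3 of the negative pools. Without these, in the same order, 7.15%, 5.41% and 9.98% of all genes were called. The member count was 4 without adult negative supernatant 1, 6 without the GFP-positive supernatant, 7 without young prior pool 1, 21 without young prior pool 2 and 7 without adult prior pool 3. Without these, in the same order, 4.56%, 6.66%, 6.25%, 10.6% and 5.75% of all genes were called. Atp5g1, Cox6a2, Uqcr11 and Uqcrfs1 were called in all 10 fits with 1 library left out. The new pools alone gave 5 lower members (3.08% of all genes called) and the prior pools alone 0 (0.0704% of all genes called). The median difference within origins was -0.23 in the new and -0.07 in the prior pools over 75 members, and Atp5g1 differed by -0.68 in the new and -0.36 in the prior pools.

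Other cell types moved with age in the same libraries. Of 7 markers of mature oligodendrocytes, Mbp, Cnp and Mobp were lower in adults, and the 7 summed to 2388 to 5162 CPM in adult and 4331 to 6701 CPM in young supernatants. Of 7 microglial markers, 2 were higher, C1qa among them, with sums of 58.4 to 98.1 CPM in adult and 48.5 to 83.2 CPM in young supernatants. Of 7 neuronal markers, Stmn2 and Tubb3 were lower and Syt1 was higher. Of the 8 preoptic markers, Kiss1 was higher, with sums of 116 to 212 CPM in adult and 59.8 to 187 CPM in young supernatants. None of 6 meningeal fibroblast markers was called, with sums of 36.3 to 267 CPM in adult and 35.2 to 442 CPM in young supernatants. Young negative supernatant 3, without which 25 members were called, had the highest meningeal sum, the highest oligodendrocyte sum and the lowest preoptic sum of the 10. The part of these markers in the result was not tested. Among the partner genes, Sdhc of complex II was lower in adults (log2 -0.23, SE 0.06), and so was Cycs (-0.30, SE 0.08). The assembly factors Cox11, Cox15 and Cox19 of complex IV were lower, while Lyrm7 of complex III (0.46, SE 0.13) and Atpaf1 of complex V (0.28, SE 0.07) were higher. None of the 13 regulators was called, and 1 of 14 citric acid cycle genes was lower, beside 9.42% of all genes called.

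The same RNA of 4 prior pools was sequenced in both sets. Between these sets, 48 members were higher and 2 lower in the second set than in the first (31.1% of all genes called), with a median of 0.18. These p-values refer to repeats and not to mice. Atp5g2 had 226, 221, 214 and 226 CPM in the second set, against 146, 164, 147 and 154 CPM in the first. The sets did not overlap, and the log2 difference was 0.53 (SE 0.05, adjusted p = 1.04e-06). Atp5g3 (log2 0.51, SE 0.04) and Uqcrb (0.49, SE 0.04) were close to it. Uqcrc1 (-0.20, SE 0.03) and Ndufb7 (-0.13, SE 0.05) were lower in the second set. Complex V had 13 of 15 genes higher, complex IV 11 of 16, complex III 5 of 8 and complex I 18 of 36. With the length trend removed, 23 members were higher and 13 lower, with a median of 0.05, and 30.6% of all genes were called. Atp5g1 had 764, 681, 553 and 572 CPM in the second set and 705, 652, 481 and 524 CPM in the first. Its ratio to Atp5g2 was thus lower in the second set in each of the 4 pools, so this ratio moved with the sequencing set too. The age differences given above were taken within the second set.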

How the data were processed

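Raw counts per gene were deposited by the authors as whole numbers. Per the submitters' processing notes, the build was mm10, and the tools named include HTSeq 0.6.1, TopHat2 2.0.13 and DESeq2 1.14.1, as well as Bowtie2 2.2.1, FastQC 0.11.3 and Cuffdiff 2.1.1. Per the labels' protocols, RNA was amplified from poly(A) with a low-input kit. The annotation and strand setting used for counting are not given in the sources used here.

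Counts were tested in R 4.3.3 by edgeR 4.0.16, quasi-likelihood test (trimmed-mean scaling, minimum count 10, Benjamini-Hochberg adjustment over all genes, threshold 0.05), with DESeq2 1.42.0 as an alternative. SE is the log2 difference divided by the root of F. Scripts were tested on simulated data. Transcript length came from GENCODE (principal transcripts) for 98.4% of 19269 genes and all 79 members, and the length trend was a lowess curve per library (span 0.5). Alternatives were other scalings, no low-count filter, the length trend, the replicate block, origins apart and each library left out. Isoform ratios used log2(CPM + 1). Members and lists were chosen with earlier results of these data known. Named genes were the 2 largest called differences per complex and direction, core subunits and isoform sets. Further genes were named after their values were seen, and some results are not reported here.

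Titles pair each IP with the supernatant of its pool and were followed, although the descriptions number the adult negative supernatants 2 and 3 where the titles have 1 and 2, and the series text names the GFP-positive supernatant in more than one way. The adult pool ratios, the paired fits and the ratio within the GFP-positive pool depend on the titles. Deviations from the group means correlated at 0.255, 0.173 and 0.407 in the young and 0.176 in the adult pools. Young IP and supernatants of unlike number correlated at -0.345 to 0.108. With 2 adult pools the deviations mirror each other, so 0.176 is a single value, with -0.176 for unlike numbers. A count of 3, the limit that 0 counts allow, was 0.0594 to 0.108 CPM, for counting error only.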

Additional observations from a re-analysis of the deposited data

Results flagged for a closer look

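Of 92 groups of values looked at, 4 had a library far from the others, and chance flags about 1 in 20 groups. Uqcrfs1 stood at 318 CPM in IP 1 of the young negative pools, with the other negative IP libraries at 356 to 370 CPM. In the second-set supernatant of adult prior pool 3, Cox5a was at 695 CPM, with the others at 794 to 821 CPM, and complex V summed to 9370 CPM, with the others at 10300 to 10500 CPM. In the second-set supernatant of young prior pool 1, Atp5a1 was at 1860 CPM, with the others at 1440 to 1550 CPM.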

How the results depend on the processing

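The count of called members in the negative IP against supernatant was 65 and became 40 with the length trend removed, 42 with it and the replicate block, and 42 with longest transcripts, a setting chosen after seeing the data. The shares of all genes called were 21.9%, 20.2% and 19.7% in the same order. In young pools the member counts were 36, 37 and 37 (17.1%, 15.6% and 14.9% of all genes). In adult pools they were 5, 5 and 6 (5.98%, 5.9% and 5.61%). Library size alone gave 22 there (10.4% of all genes) and DESeq2 57 (16.7%). With age in supernatants, DESeq2 called 25 (11.9% of all genes) and the fit with no origin term 3 (4.22%). New pools alone gave 5 (3.08%) and prior pools alone 0 (0.0704%). The replicate block by title number, in new pools alone, gave 38 (8.23%), although that number does not link young and adult pools. For the IP between ages, DESeq2 called 2 (8.32%). Leaving out 1 library gave 64 to 66 members for IP against supernatant, 62 to 64 in young, 3 to 60 in adult pools, 4 to 25 with age, 41 to 49 between sets and 0 to 3 for the IP between ages; the age by fraction and GFP-positive counts were 0 throughout. The replicate block alone left the IP against supernatant calls of named genes on their side of the threshold in 72 cases and lost 1. Over both ages it added a lower call for Atp5b. With the length trend removed, without and with the block, Atp5g2 reversed to 0.065 and 0.059 over both ages, 0.082 and 0.071 in young and 0.047 in adult pools. Cox8a reversed to 0.029, 0.022 and, with longest transcripts, 0.10 over both ages, and to 0.012, 0.011 and 0.126 in young pools. Between sets, Atp5g1 became -0.083 and Cox6a1 -0.076, and with longest transcripts Cox4i1 -0.020 and Cox6a1 -0.110. The cause was not tested. Scaling by library size alone moved the median of all genes from -0.031 to 0.086 for IP against supernatant. Cox8b and Cox8c had too few counts to be tested, and Ndufs5, with 2 to 25 counts, had a wide error.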
